A study of Mus musculus with 102 samples.

Results

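Spleens of 14-month-old mice were compared with spleens of 5- and 8-month-old mice pooled, a step from young adult life into midlife. The comparison took 26 of the 45 spleens of an ageing experiment, in a series of 102 samples of brain and spleen. Of these, 9 were from animals of 14 months and 17 from the younger group, with 9 animals of 5 months and 8 of 8 months. All 26 mice were male BL6J animals labelled WT, no treatment is named for them, and each library carried its own animal code. Total RNA of whole flash-frozen spleen was sequenced, so the values below are normalized read counts, the authors' reads per gene divided by 1 size factor per library. A gene was tested if its value was 10 or more in at least 5 of the 45 libraries, which 16243 of 51810 listed genes met. The test was limma on log2 of the value plus 1, and a gene is called higher or lower where the p adjusted by Benjamini-Hochberg over all 16243 genes was under 0.05. A log2 fold change is 14 months over 5 and 8 months on that scale and understates the change of genes with few reads.

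The spleen filters blood and hosts immune responses. Its white pulp is built of B-cell follicles and T-cell zones around small arteries, held on a network of stromal cells, and its red pulp is a meshwork of venous sinuses, collagen-bearing cords and macrophages that clear old red cells and recycle their iron. A capsule of collagen and smooth muscle under a mesothelial layer covers the organ, and fat attaches at the hilum next to the pancreas. In mice the red pulp can also make granulocytes, platelets and red cells. In whole tissue, fewer cells of a type and less RNA per cell cannot be told apart.

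Libraries held 5058444 to 8732622 reads in genes at 14 months and 3782260 to 8875567 at 5 and 8 months, with medians of 5821549 and 5580271. All 5 libraries under 5000000 reads were from 5-month animals. Replicates 6 and 7 had the most reads of the 14-month group, 8670921 and 8732622. Malat1 held 1.17% and 1.06% of their reads, against 2.27% to 2.80% in the other 14-month libraries. At 5 and 8 months its share was 0.741% to 3.18%. The part of the Malat1 share in the results was not tested. The B-cell gene Cd79a and the red pulp macrophage factor Spic had reads in all 26 libraries, with 14-month ranges of 1809 to 3414 and 230.4 to 1317. Ms4a1, Igkc, Ccl19, Ccl21a, Foxp3, B2m and Alas2, which spleen cells also use, are listed at 0 in every one of the 26 libraries and were not tested. Levels of fat, mesothelium and exocrine pancreas markers varied between the libraries as well. The summed level of 12 adipocyte genes was 229 to 2296 (median 954) at 14 months, against 120 to 646 (median 350) at 5 and 8 months. For 8 mesothelium genes the sum was 567 to 1480 (median 769) at 14 months, against 327 to 770 (median 592) at 5 and 8 months. For 16 exocrine pancreas genes it was 38.1 to 3121 (median 96.0) at 14 months, against 35.1 to 844 (median 64.8) at 5 and 8 months, and replicate 7 of the 14-month group held the highest value. That library also had the highest means of the matrix, endothelium, red pulp macrophage and interferon lists and the lowest T-cell mean. Replicates 3, 6 and 7 had the highest adipocyte means of all 26 libraries (6.46, 5.42 and 5.83 on the log2 scale, where 5- and 8-month libraries reached 4.77). Replicates 5, 8 and 9 of the 14-month group lay within the 5- and 8-month range in the matrix, endothelium, adipocyte, mesothelium and neutrophil precursor means. The part of fat and mesothelium in the results was not tested beyond the counts given without these libraries and with these lists as a covariate.

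At 14 months 1324 genes were called, 8.15% of those tested, with 963 higher (5.93%) and 361 lower (2.22%). The median log2 fold change of all tested genes was 0.02. Without replicates 3, 6 and 7, a choice made after the values were seen, 171 genes were called, 153 higher and 18 lower. With the mean of the adipocyte and mesothelium lists as a covariate, also chosen afterwards, 6 genes were called, all higher, where 1651 had an unadjusted p under 0.05. With the mean of the neutrophil and neutrophil precursor lists as a covariate, a planned setting, 243 genes were called. Without replicate 7 alone 597 genes were called and without replicate 8 alone 2070. In all 26 left-out fits and all 19 other settings, Scube1, Tshz2 and Abi3bp stayed called.

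Scube1 encodes a secreted and cell-surface glycoprotein with EGF-like and CUB domains that endothelium and platelets make. Its normalized count was 113 to 348 (median 215) in the 14-month spleens, against 39.7 to 123 (median 75.3) in the 5- and 8-month spleens (log2 fold change 1.38, SE 0.18, limma adjusted p = 0.000115). Of the 9 spleens at 14 months 8 lay above every younger one. It had the smallest p of all genes and remained called with the adipocyte and mesothelium covariate, at a log2 fold change of 1.26. The gene lies on chromosome 15 from 83602583 to 83725051 (RefSeq, GRCm38.p6).

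Tshz2, a zinc finger transcription factor of the teashirt family, had 431 to 862 (median 660.1) at 14 months, against 189 to 472 (median 278.3) at 5 and 8 months (log2 fold change 1.06, SE 0.15, limma adjusted p = 0.000327). All but 2 of the 14-month values exceeded the highest younger value. Abi3bp encodes an extracellular matrix protein that binds collagen and is found in fibroblast-rich tissue. It had 336 to 569 (median 423) at 14 months, against 142 to 332 (median 255) at 5 and 8 months (log2 fold change 0.79, SE 0.12, limma adjusted p = 0.000988), and the groups did not overlap. Only 3 tested genes, 0.0185%, were higher at 14 months without overlap, and 0 were lower without overlap. The other two were Il17rd, an inhibitor of fibroblast growth factor signalling, and Fam129b, a protein linked to cell survival, both named here after their values were seen. Il17rd had 77.1 to 147 (median 98.7) at 14 months, against 27.0 to 70.7 (median 48.2) at 5 and 8 months (log2 fold change 1.12, SE 0.18, limma adjusted p = 0.00122). Fam129b had 109.9 to 187 (median 129.7) at 14 months, against 26.9 to 109 (median 91.3) at 5 and 8 months (log2 fold change 0.80, SE 0.18, limma adjusted p = 0.00734). Il17rd was among the 6 genes called with the adipocyte and mesothelium covariate (log2 fold change 1.26) and Fam129b was not. Besides Scube1, Tshz2, Abi3bp and Il17rd, these 6 included Csgalnact1, an enzyme that starts chondroitin sulfate chains, and the long noncoding RNA Snhg11.

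**Figure D1:**
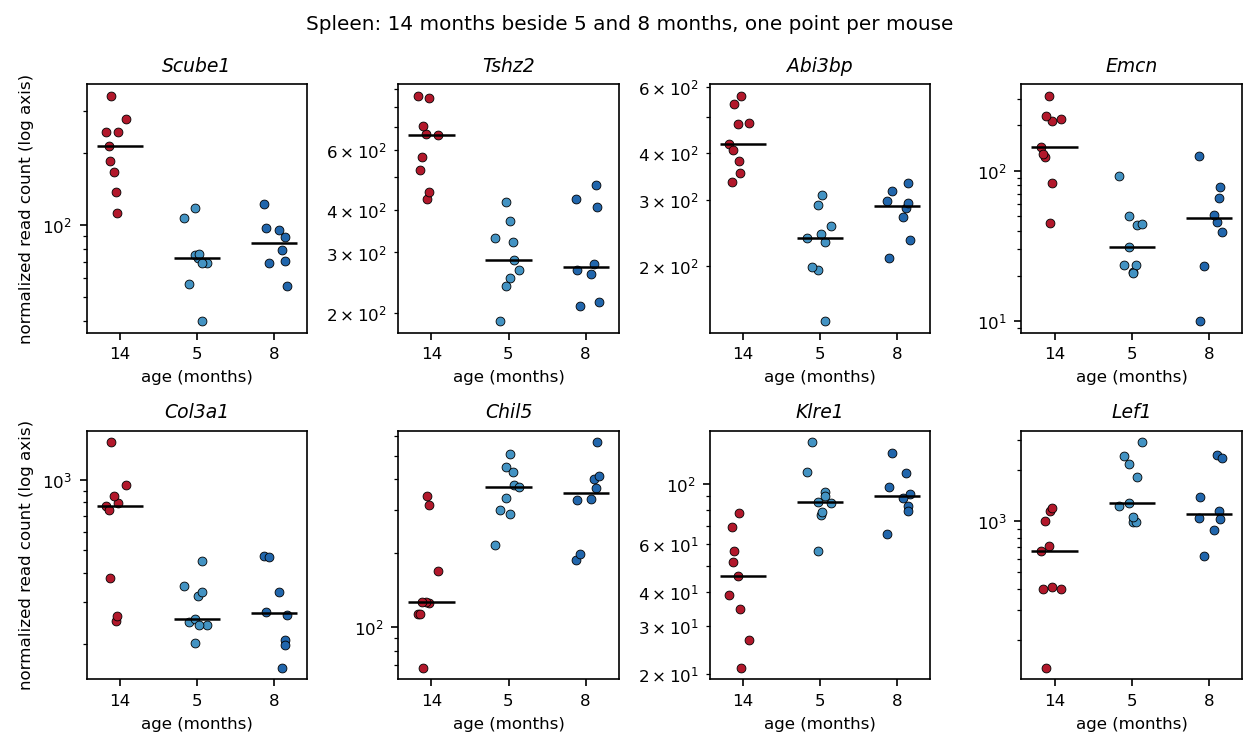
Normalized read counts (log axis) of 8 genes in each spleen at 14, 5 and 8 months, with a bar at the median of each age. All 9 values of Abi3bp at 14 months lie above the highest younger value, and 8 of 9 do so for Scube1, while Chil5 and Klre1 have 7 of 9 below the lowest younger value and Col3a1 and Lef1 overlap more.

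Genes of connective tissue were higher together. Of 17 tested extracellular matrix genes 14 were called higher and 0 lower, where 5.93% of all genes were called higher, and their median log2 fold change was 0.97. Fbn1, which forms the microfibrils that scaffold elastic fibres, had 159 to 508 (median 221) at 14 months, against 85.2 to 196 (median 124) at 5 and 8 months (log2 fold change 0.98, SE 0.16, limma adjusted p = 0.00122). Sparc, a collagen-binding glycoprotein, had 1399.7 to 4636 (median 2736) at 14 months, against 954 to 2249 (median 1421) at 5 and 8 months (log2 fold change 0.88, SE 0.16, limma adjusted p = 0.0017). For Fbn1 6 and for Sparc 7 of the 14-month spleens lay above all younger ones, and the rest overlapped.

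The small proteoglycan Bgn had 1793 to 6169.6 (median 4267) at 14 months, against 925 to 4314 (median 1615) at 5 and 8 months (log2 fold change 1.17, SE 0.23, limma adjusted p = 0.00268). Col3a1, the fibrillar collagen of reticular fibres, had 251 to 1445 (median 776) at 14 months, against 158 to 474 (median 266) at 5 and 8 months (log2 fold change 1.14, SE 0.23, limma adjusted p = 0.00309). The 14-month values of Col3a1 fell apart into 6 above every younger spleen and 3 among them. Col4a1 and Col4a2, the paired chains of basement membrane collagen that lie head to head on chromosome 8, changed by 1.04 and 1.01. Their annotated spans share 85 bases, so reads there cannot be assigned to one of them without strand. Dcn, Eln, Mgp, Fbln1, Loxl1, Col1a1, Col1a2 and Col6a1 were the other called members, with log2 fold changes of 0.56 to 1.24. Lum (0.23, limma adjusted p = 0.815), Postn (0.27, 0.486) and Col5a1 (0.61, 0.138) did not pass.

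Over the whole collagen family, 39 of 44 genes were tested. Of these 16 were called higher, against 5.93% of all genes, and 0 lower, and their median log2 fold change was 0.79. The family was examined after the values of its members in the matrix list were known. Among its largest were Col8a1, a short-chain collagen of vessel walls, at 1.30 (SE 0.28, limma adjusted p = 0.00525), and Col6a1, of the microfibrils around cells, at 1.24 (SE 0.30, limma adjusted p = 0.0108). Col22a1 and Col20a1, at -0.11 and -0.10, were not called.

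Some genes of enzymes that cut matrix were higher too. Of 42 genes of the matrix metalloproteinase and ADAMTS families 34 were tested, with 12 called higher, 0 lower and a median log2 fold change of 0.83. Of all genes 5.93% were called higher, and these families were chosen after the values were seen. Leaving out 1 library gave 8 to 16 higher calls, and without replicates 3, 6 and 7 limma made 1, at a median of 0.51. Mmp3, or stromelysin, had 60.4 to 312 (median 216) at 14 months, against 4.28 to 251 (median 38.3) at 5 and 8 months (log2 fold change 1.94, SE 0.46, limma adjusted p = 0.00936). Its highest younger value came close to the highest at 14 months, and the groups overlapped. Mmp3 lost its call in 4 of 19 other settings and in 0 of 26 left-out fits. Mmp2, a gelatinase of fibroblasts, changed by 1.41 (SE 0.36, limma adjusted p = 0.0138), and the aggrecan-cutting Adamts4 by 1.66 (SE 0.35, limma adjusted p = 0.00405). Mmp13 had the largest fold change of the family at 2.05 (limma adjusted p = 0.0309), on normalized counts of 0 to 46.3 at 14 months. Adamts6 and Adamts3 had the lowest, -0.75 and -0.34, and were not called.

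**Figure D2:**
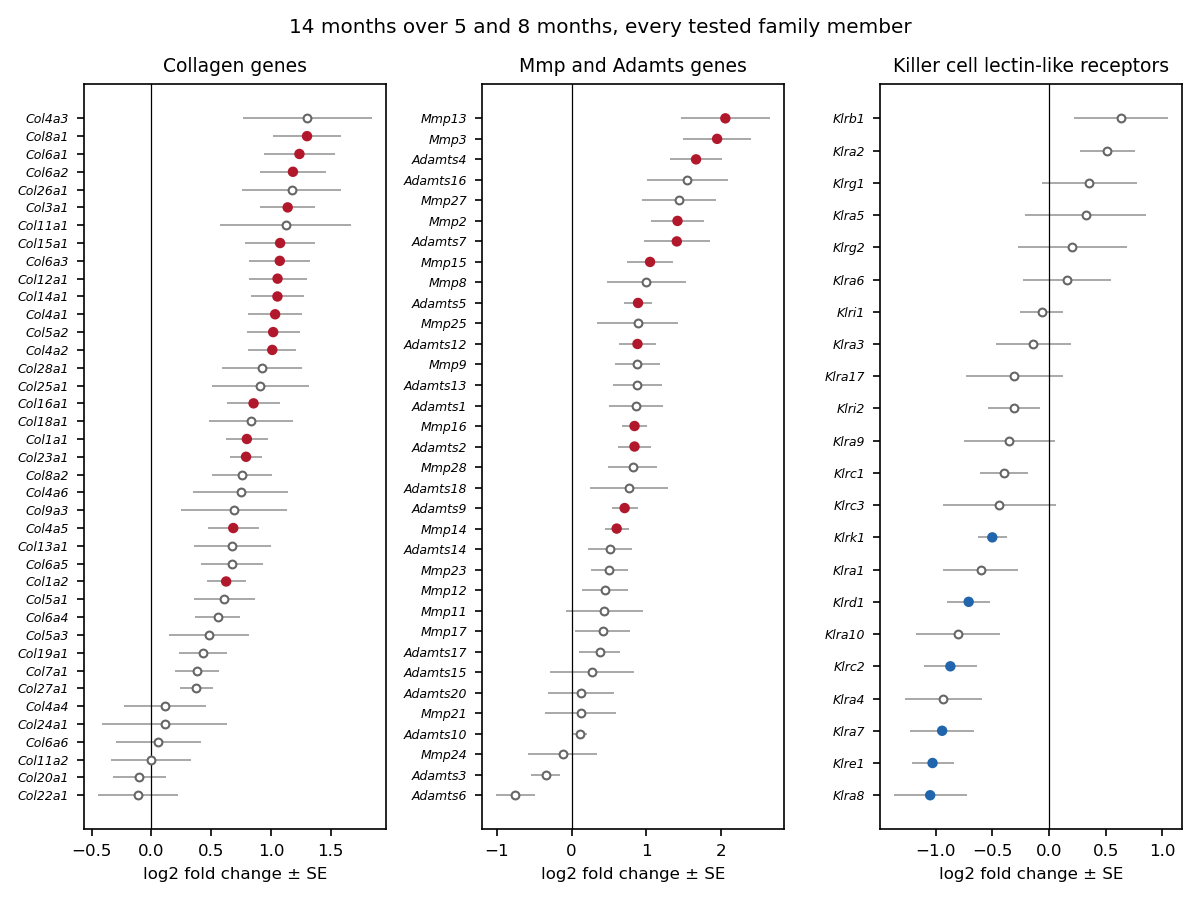
Log2 fold change with its SE, 14 months over 5 and 8 months, for every tested collagen, Mmp or Adamts, and killer cell lectin-like receptor gene, filled where called. Collagen calls (16 of 39) and protease calls (12 of 34) all lie right of 0 and receptor calls (6 of 22) all lie left of it. The families were chosen after the values were seen.

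Vessel genes followed the same direction. In the endothelium list 9 of 17 tested genes were called higher, against 5.93% of all genes, and 0 lower. The list median log2 fold change was 0.74. Emcn, the sialomucin of capillary and venous endothelium, had 45.2 to 315 (median 145) at 14 months, against 9.99 to 125 (median 43.6) at 5 and 8 months (log2 fold change 1.88, SE 0.33, limma adjusted p = 0.00142). Eng, a TGF-beta co-receptor, had 189 to 609 (median 337) at 14 months, against 100.2 to 274 (median 144) at 5 and 8 months (log2 fold change 1.06, SE 0.18, limma adjusted p = 0.00142). Above the highest younger spleen lay 6 of the 14-month values of Emcn and 5 of those of Eng.

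The angiopoietin receptor Tek changed by 1.03 (SE 0.22, limma adjusted p = 0.0049), and the scavenger receptors of sinus endothelium Stab1 and Stab2 by 1.41 (SE 0.32, limma adjusted p = 0.00736) and 0.52 (SE 0.12, limma adjusted p = 0.009). Tie1, Robo4, Flt4 and Lyve1 were called as well, with log2 fold changes of 0.73 to 1.57, Lyve1 on low counts of 3.36 to 63.9 at 14 months. The pan-endothelial Pecam1 and the clotting factor Vwf were not called, with log2 fold changes of -0.27 (limma adjusted p = 0.193) and 0.15 (0.724). Tspan18, a tetraspanin known from endothelium, had 189.6 to 354 (median 297) at 14 months, against 71.8 to 212 (median 144) at 5 and 8 months (log2 fold change 0.99, SE 0.15, limma adjusted p = 0.000988). Rassf9, a Ras-association protein of recycling endosomes, had 23.5 to 69.1 (median 39.9) at 14 months, against 3.35 to 26.3 (median 9.43) at 5 and 8 months (log2 fold change 1.85, SE 0.29, limma adjusted p = 0.000988), and 8 of 9 values at 14 months were above every younger one.

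Of 15 tested splenic stroma genes 6 were called higher, against 5.93% of all genes, and 0 lower, at a median of 0.56. Pdgfra, the growth factor receptor of fibroblasts, had 185 to 587 (median 375) at 14 months, against 91.0 to 325 (median 181) at 5 and 8 months (log2 fold change 0.84, SE 0.18, limma adjusted p = 0.00551). Grem1, a BMP antagonist of stromal cells, changed by 0.97 (SE 0.22, limma adjusted p = 0.00736). The contractile and muscle genes Acta2, Tagln, Myh11 and Des changed by 1.05, 1.27, 0.82 and 0.58 (limma adjusted p = 0.0125, 0.0401, 0.0316 and 0.00912). The follicle chemokine Cxcl13 (0.54, limma adjusted p = 0.0578) and the spleen-forming factor Tlx1 (0.56, 0.468) did not pass.

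Prg4, the lubricin of joint and serosal surfaces, had 28.7 to 364 (median 104) at 14 months, against 9.71 to 44.3 (median 23.6) at 5 and 8 months (log2 fold change 1.77, SE 0.35, limma adjusted p = 0.00277). Among the 12 largest increases also stood marker genes of fat and mesothelium. The uroplakin Upk3b, a mesothelium marker, had 4.47 to 135 (median 37.5) at 14 months, against 1.10 to 36.3 (median 6.97) at 5 and 8 months (log2 fold change 1.77, SE 0.52, limma adjusted p = 0.0322). Car3, the carbonic anhydrase of fat and muscle, changed by 1.80 (SE 0.53, limma adjusted p = 0.0327), and adipsin (Cfd), a complement factor that fat secretes, by 1.77 (SE 0.57, limma adjusted p = 0.0472). Upk3b lost its call in 10 of 18 other settings and in 6 of 26 left-out fits. Car3 lost its call in 7 of 19 and 6, Cfd in 9 of 18 and 15, and Prg4 in 4 of 18 and 0. In the adipocyte list 3 of 8 tested genes were called higher and in the mesothelium list 3 of 7, against 5.93% of all genes. Their medians were 1.49 and 1.61, with 0 lower in both. Leaving out 1 library gave 1 to 5 higher calls in the adipocyte list and 0 to 4 in the mesothelium list. Adiponectin (Adipoq) had 0 to 84.1 (median 11.8) at 14 months, against 0 to 16.3 (median 2.38) at 5 and 8 months, and did not pass (limma adjusted p = 0.0541).

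Fewer connective tissue and vessel genes were called in both alternatives that concern fat and mesothelium, and the cause was not tested. Without replicates 3, 6 and 7, 2 of 17 matrix genes, 3 of 17 endothelium genes, 0 of 15 stroma genes and 1 of 39 collagen genes were called higher with 6 spleens in place of 9 at 14 months, at medians of 0.74, 0.57, 0.48 and 0.67. With the adipocyte and mesothelium covariate these lists had 0 calls in limma, at medians of 0.54, 0.29, 0.48 and 0.55, and 12, 6, 7 and 16 of their genes were higher at an unadjusted p under 0.05. Matrix list means at 14 months were 7.09 to 9.03, and 6 of 9 lay above the highest 5- or 8-month mean of 7.95. Replicate 4 had a matrix mean of 8.30 with an adipocyte mean of 3.32, inside the younger range, and the highest mesothelium mean of the 26 libraries, 6.94.

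**Figure D3:**
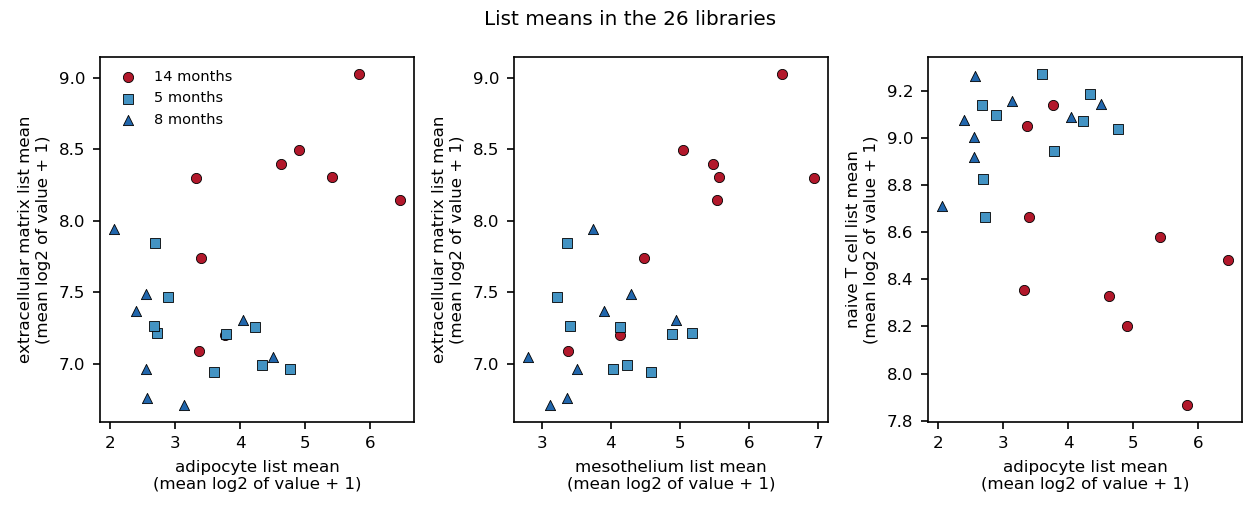
Each point is 1 spleen, placed by its adipocyte or mesothelium list mean and its extracellular matrix or naive T-cell list mean (mean of log2 of value plus 1). Of the 14-month spleens, 6 have matrix means of 8.14 or more and 3 lie among the younger spleens at 7.09, 7.20 and 7.74.

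Granule genes of maturing neutrophils had some of the largest fold changes and a wide spread. Ltf, the iron-binding lactoferrin, and the cathelin-related Ngp and Camp are made for the secondary granules in the bone marrow or in blood-forming spleen, and Fcnb is a ficolin of the same cells. C/EBP factors, above all C/EBP epsilon, drive secondary granule genes. A window of 250 bases at the RefSeq start of each of the 5 called genes is therefore shown. It lies directly before the annotated gene for all but Fcnb. For Fcnb the window begins at 28084879 on the minus strand and overlaps the gene, annotated up to 28084910. Matches to the C/EBP-type motif TTGCNNAA on either strand are in capitals (GRCm38.p6).
Ltf, chr9:111019042-111019291, plus strand: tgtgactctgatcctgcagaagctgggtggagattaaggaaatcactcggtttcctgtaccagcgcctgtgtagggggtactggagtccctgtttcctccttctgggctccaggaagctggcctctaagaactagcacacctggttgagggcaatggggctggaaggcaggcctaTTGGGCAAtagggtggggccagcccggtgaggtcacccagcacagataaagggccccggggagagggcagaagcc
Ngp, chr9:110419558-110419807, plus strand: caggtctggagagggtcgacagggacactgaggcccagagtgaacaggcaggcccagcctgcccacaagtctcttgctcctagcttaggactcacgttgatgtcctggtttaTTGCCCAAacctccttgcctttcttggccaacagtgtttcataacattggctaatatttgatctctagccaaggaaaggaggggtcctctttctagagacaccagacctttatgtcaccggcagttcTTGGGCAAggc
Camp, chr9:109849457-109849706, minus strand: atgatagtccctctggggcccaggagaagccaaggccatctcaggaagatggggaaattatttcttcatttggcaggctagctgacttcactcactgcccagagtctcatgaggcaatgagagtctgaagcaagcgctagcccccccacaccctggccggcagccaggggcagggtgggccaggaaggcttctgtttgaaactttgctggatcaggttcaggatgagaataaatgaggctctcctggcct
Fcnb, chr2:28084879-28085128, minus strand: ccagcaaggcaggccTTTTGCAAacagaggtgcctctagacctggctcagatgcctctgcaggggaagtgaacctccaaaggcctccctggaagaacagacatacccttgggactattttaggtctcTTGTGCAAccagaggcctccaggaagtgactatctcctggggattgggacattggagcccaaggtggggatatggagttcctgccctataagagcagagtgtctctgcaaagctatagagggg
Anxa1, chr19:20390672-20390921, minus strand: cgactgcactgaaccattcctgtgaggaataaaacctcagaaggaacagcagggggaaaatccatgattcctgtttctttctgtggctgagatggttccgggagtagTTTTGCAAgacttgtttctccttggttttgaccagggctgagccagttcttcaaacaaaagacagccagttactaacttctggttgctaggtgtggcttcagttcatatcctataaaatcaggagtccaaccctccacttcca
The motif occurred in 3142 of 32851 such windows of all genes (9.56%). It occurred in 5 of the 14 windows of neutrophil precursor genes (35.7%), once each for Ltf, Lcn2 and Anxa1 and at 2 places each for Ngp and Fcnb, and in none for Camp. No test was made of this, and a match does not show that a factor binds.

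Of 15 tested neutrophil precursor genes 5 were called higher, against 5.93% of all genes, and 0 lower. Their median log2 fold change was 1.53. Ltf had 11.5 to 469.5 (median 122) at 14 months, against 2.57 to 137 (median 28.2) at 5 and 8 months (log2 fold change 1.97, SE 0.60, limma adjusted p = 0.0376). Ngp had 19.0 to 663 (median 182) at 14 months, against 6.57 to 267 (median 31.4) at 5 and 8 months (log2 fold change 1.82, SE 0.57, limma adjusted p = 0.0424). Both ranges overlapped widely, with 3 of 9 older spleens above the highest younger one for Ltf and 2 for Ngp. Camp, the cathelicidin peptide precursor, had 9.74 to 248 (median 67.5) at 14 months, against 1.95 to 171 (median 15.3) at 5 and 8 months (log2 fold change 1.77, SE 0.57, limma adjusted p = 0.0497). Camp, Ngp and Ltf lie on chromosome 9, where 0.57 Mb separate Camp from Ngp and 1.17 Mb separate Camp from Ltf.

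Fcnb changed by 1.98 (SE 0.60, limma adjusted p = 0.0374) and Anxa1, an anti-inflammatory annexin of granulocytes and other cells, by 0.91 (SE 0.22, limma adjusted p = 0.0123). The primary granule genes Mpo and Elane did not pass, at log2 fold changes of 1.85 and 1.97 (limma adjusted p = 0.113 and 0.0788). In the list of mature neutrophil genes 0 of 12 were called by limma, 1 by edgeR and 2 by DESeq2, and 4 had an unadjusted p under 0.05 in limma, with S100a8 at 1.60 (limma adjusted p = 0.054) and Csf3r at -0.59 (0.153). Wfdc21, a secreted whey acidic protein family member, had the largest increase of the genes named by size, with 12.9 to 132 (median 37.0) at 14 months, against 0 to 33.4 (median 7.57) at 5 and 8 months (log2 fold change 2.02, SE 0.50, limma adjusted p = 0.0121). Wfdc21 lost its call in 5 of 18 other settings, the neutrophil covariate among them, and in 0 of 26 left-out fits. Mean levels of the precursor list ran from 2.49 to 6.60 on the log2 scale at 14 months, against 1.84 to 5.43 at 5 and 8 months. Camp lost its call in edgeR and DESeq2 and in 19 of 26 left-out fits, Ltf in 12 and Ngp in 17, and without replicates 3, 6 and 7 the list had 0 calls in limma at a median of 0.89, with 2 genes at an unadjusted p under 0.05.

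Part of the T-cell genes was lower at 14 months. In the T-cell list 6 of 19 tested genes were called lower and 0 higher, where 2.22% of all genes were called lower, and the median log2 fold change was -0.41. Lat, the adaptor that relays the T-cell receptor signal, had 263 to 566 (median 471) at 14 months, against 495 to 843 (median 633) at 5 and 8 months (log2 fold change -0.50, SE 0.11, limma adjusted p = 0.0044). Of the 9 older spleens 6 were below every younger one.

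Bcl11b, a T-lineage transcription factor, changed by -0.91 (SE 0.24, limma adjusted p = 0.016). The receptor parts Cd3d and Cd247 and the kinase Lck changed by -0.53, -0.66 and -0.55 (limma adjusted p = 0.0184, 0.0492 and 0.0275). The coreceptor Cd4 had 646 to 1203 (median 941) at 14 months, against 787 to 1079 (median 977) at 5 and 8 months, and was not called (log2 fold change -0.02, SE 0.09, limma adjusted p = 0.918). Cd8a and Cd3e did not pass either, at -0.36 and -0.41 (limma adjusted p = 0.203 and 0.315). Without replicate 7 of the 14-month group 2 T-cell genes were called, without replicates 3, 6 and 7 it was 1, at a median of -0.34, and with the adipocyte and mesothelium covariate 0 in limma, at -0.29, with 2 at an unadjusted p under 0.05.

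Of 11 tested naive T-cell genes 4 were called lower, against 2.22% of all genes, and 0 higher, at a median of -0.45. In this list 9 log2 fold changes were negative and 2 positive, the largest 0.57. At an unadjusted limma p under 0.05, 9 genes were lower and 1 was higher. Without replicate 7 of the 14-month group 2 were called lower, without replicates 3, 6 and 7 it was 1, at a median of -0.38, and with the adipocyte and mesothelium covariate 0 in limma, at -0.24, with 2 lower at an unadjusted p under 0.05. Lef1, a Wnt-pathway transcription factor that keeps T cells naive, had 136 to 1200.3 (median 667) at 14 months, against 625 to 2928 (median 1230.0) at 5 and 8 months (log2 fold change -1.29, SE 0.28, limma adjusted p = 0.00525). Dapl1, a small protein of naive T cells, had 20.4 to 128 (median 39.2) at 14 months, against 56.2 to 174 (median 128) at 5 and 8 months (log2 fold change -1.26, SE 0.25, limma adjusted p = 0.00309). Below the lowest younger spleen lay 4 of the older ones for Lef1 and 6 for Dapl1.

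The chromatin organizer Satb1 changed by -1.06 (SE 0.28, limma adjusted p = 0.0178) and the interleukin 7 receptor Il7r by -0.45 (SE 0.15, limma adjusted p = 0.0488). Tcf7, the partner of Lef1, and the homing receptor Ccr7 did not pass, at -0.76 and -0.35 (limma adjusted p = 0.0622 and 0.182). The rule for named genes added Klf2, which controls exit of naive T cells from lymphoid tissue, at -0.94 (SE 0.26, limma adjusted p = 0.0233), Themis, a T-cell receptor signalling protein, at -0.94 (SE 0.23, limma adjusted p = 0.0116), and Sidt1, a membrane protein linked to RNA transport, at -1.02 (SE 0.25, limma adjusted p = 0.0127). Fgf13, an intracellular growth factor homologue, changed by -1.14 (SE 0.30, limma adjusted p = 0.0181). Satb1 and Sidt1 were not called by edgeR or DESeq2. Lef1, Satb1, Klf2, Themis, Sidt1 and Fgf13 were not called without replicates 3, 6 and 7 or with the adipocyte and mesothelium covariate. All of these genes also lost their calls with the neutrophil covariate and against 8 months alone. Dapl1 was not called with either covariate. Under the adipocyte and mesothelium covariate Satb1 had a log2 fold change of -0.29.

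Part of the natural killer cell genes was lower. Of 18 tested natural killer genes 6 were called lower, against 2.22% of all genes, and 0 higher, at a median of -0.59. Leaving out 1 library gave 3 to 7 lower calls. Klre1, a lectin-like receptor that pairs with Klri subunits, had 21.1 to 78.0 (median 46.1) at 14 months, against 56.8 to 142 (median 88.8) at 5 and 8 months (log2 fold change -1.03, SE 0.19, limma adjusted p = 0.0015), and 7 of 9 older spleens lay below all younger ones. Klrk1, the activating receptor NKG2D, had 179 to 431 (median 245) at 14 months, against 312 to 491 (median 371) at 5 and 8 months (log2 fold change -0.50, SE 0.13, limma adjusted p = 0.0157). Klrd1, or CD94, and its partner Klrc2 changed by -0.71 and -0.87 (limma adjusted p = 0.0191 and 0.0201).

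The Ly49 receptor genes Klra7 and Klra8 changed by -0.94 and -1.05 (limma adjusted p = 0.0347 and 0.038). Close copies in the Klra family can exchange reads. Klra7 lost its call in 10 of 19 other settings, with edgeR, DESeq2 and each younger age alone among them, and in 7 of 26 left-out fits. All 6 called genes lie between 129.56 and 130.23 Mb of chromosome 6, in the natural killer gene complex. Across 22 tested lectin-like receptor genes, a family chosen after the values were seen, the same 6 were called lower and 0 higher. The median of the 22 was -0.37, while Klrb1 (0.64) and Klra2 (0.51) had positive fold changes that did not pass. The cytotoxic genes Prf1 and Gzma and the receptor Ncr1 did not pass, at -0.07, -1.03 and -0.65 (limma adjusted p = 0.89, 0.126 and 0.0866). Without replicates 3, 6 and 7, 2 genes of the natural killer list were called lower at a median of -0.54, and with the adipocyte and mesothelium covariate 0 in limma at -0.59, where 7 were lower at an unadjusted p under 0.05.

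Among B-cell genes 3 of 19 were called lower and 1 higher, against 2.22% and 5.93% of all genes, at a median of -0.39. Leaving out 1 library gave 1 to 10 lower and 0 to 2 higher. Cr2, a B-cell receptor for complement fragments, had 3162 to 11175 (median 6011) at 14 months, against 7047 to 12510.0 (median 9346) at 5 and 8 months (log2 fold change -0.65, SE 0.15, limma adjusted p = 0.00943). Ralgps2, a guanine exchange factor, and the Src-family kinase Blk changed by -0.55 and -0.39 (limma adjusted p = 0.0179 and 0.0374). The IgM heavy chain gene Ighm was higher, with 19087 to 57409.7 (median 34468) at 14 months, against 9037 to 47398 (median 20060.1) at 5 and 8 months (log2 fold change 0.79, SE 0.23, limma adjusted p = 0.0288). Cd79a and Cd22 were not called, at -0.19 and -0.07.

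Rgs13, a regulator of G-protein signalling in germinal centre B cells, fell most of the genes named by size, with 12.2 to 48.7 (median 20.4) at 14 months, against 20.1 to 144 (median 72.9) at 5 and 8 months (log2 fold change -1.37, SE 0.28, limma adjusted p = 0.00381). Only 3 older spleens lay below the whole younger range. Bcl6, the germinal centre master factor, changed by -0.51 (SE 0.16, limma adjusted p = 0.0368), and the other 8 tested germinal centre genes were not called. Dph5 and Dtx1, of 9 marginal zone B-cell genes, were called lower at -0.63 and -0.57, where 2.22% of all genes were called lower. The median of those 9 genes was 0.09. Of the plasma cell genes 2 of 18 were called higher, against 5.93% of all genes. The list median was 0.18, with 11 positive and 7 negative log2 fold changes, and no change of the whole list is read from it. Sdc1, the syndecan CD138 of plasma cells and epithelia, had 93.9 to 287 (median 226) at 14 months, against 82.0 to 177 (median 126) at 5 and 8 months (log2 fold change 0.75, SE 0.16, limma adjusted p = 0.0044), with 8 of 9 older spleens above every younger one. Txndc5, a disulfide isomerase, changed by 0.51, while Jchain (0.15), Igha (-0.24) and Ighg1 (-0.11) did not pass. Of 79 heavy chain variable segments limma called 0, with 11 at an unadjusted p under 0.05, while edgeR called 8 and DESeq2 4. Of 78 kappa segments limma called Igkv5-39, at 1.58 (SE 0.45, limma adjusted p = 0.0288). Such segments share sequence and can exchange reads.

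Macrophage and complement genes were higher in part. In the red pulp macrophage list 4 of 16 genes were called higher, against 5.93% of all genes, and 0 lower. The list median was 0.62, and all 16 log2 fold changes were positive. Adgre1, which encodes F4/80, had 484 to 1012 (median 638) at 14 months, against 229 to 556 (median 454) at 5 and 8 months (log2 fold change 0.67, SE 0.13, limma adjusted p = 0.00277). Mertk, a receptor for engulfing dying cells, had 1369 to 2266 (median 1809) at 14 months, against 731 to 1557 (median 1145) at 5 and 8 months (log2 fold change 0.58, SE 0.11, limma adjusted p = 0.00186). For both, 7 of 9 older spleens were above all younger ones. C1qa and Axl were also called (0.79 and 0.77), while the iron exporter Slc40a1 (0.77, limma adjusted p = 0.0687) and Spic (0.70, 0.051) did not pass in limma. edgeR called 11 members and DESeq2 12, and without replicates 3, 6 and 7 limma called 2 at a median of 0.25.

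Of 13 complement genes 5 were called higher, against 5.93% of all genes, and 0 lower, at a median of 0.59. The C1 inhibitor Serping1 had 478 to 1774 (median 1136) at 14 months, against 230.1 to 775 (median 451) at 5 and 8 months (log2 fold change 1.01, SE 0.20, limma adjusted p = 0.00277). C3, the central component, had 2232 to 5622 (median 4453) at 14 months, against 997 to 4122 (median 1906) at 5 and 8 months (log2 fold change 0.98, SE 0.22, limma adjusted p = 0.00609). The protease C1ra and C4b changed by 0.84 and 0.77, and reads of C4b can be exchanged with its copy C4a. Without replicates 3, 6 and 7 0 complement genes were called by limma, at a median of 0.33, with 6 higher and 1 lower at an unadjusted p under 0.05. Lyz2, the lysozyme of phagocytes, changed by 0.74 (SE 0.19, limma adjusted p = 0.0142), with the same caution towards Lyz1. In the iron list Cp, a ferroxidase, changed by 0.62 (SE 0.11, limma adjusted p = 0.0015), and the ferritin light chain Ftl1 and the phagosome transporter Slc11a1 by 0.57 and 0.90.

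Genes that respond to interferon had 4 calls of 23, all higher, against 5.93% of all genes, at a median of 0.31. The 4 were Ifi44, at 1.23 (SE 0.28, limma adjusted p = 0.00835), the antiviral Oasl2 (0.75) and Oas1a (0.72), and the RNA sensor Ifih1 (0.68). On the 26 libraries edgeR called 6 and DESeq2 7. Without replicate 7 limma called 1 member. With all 45 spleens in 1 fit it called 0, where 8 were higher at an unadjusted p under 0.05, and with the adipocyte and mesothelium covariate 0 at a median of 0.02, where 2 were higher and 1 lower at that p. In the p53 and senescence list 3 of 15 genes were called higher, against 5.93% of all genes. Among these 3 the kinase Plk2 changed by 1.11 (SE 0.23, limma adjusted p = 0.0044) and Phlda3, an Akt inhibitor, by 1.00. The cell cycle inhibitors Cdkn1a (0.89, limma adjusted p = 0.0703) and Cdkn2a (0.58, 0.31) did not pass.

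Of 20 tested immediate early genes, Klf4 (0.77), Fos (0.91) and Jun (0.80) were called higher and Klf2 (-0.94) lower, at a median of -0.03. Single calls occurred in further lists, where 5.93% of all genes were called higher and 2.22% lower. No change of a whole list is read from them. Among cell cycle genes it was the helicase subunit Mcm4 (-0.43), lower, 1 of 34. All 34 cell cycle genes had negative log2 fold changes, at a median of -0.29. At an unadjusted limma p under 0.05, 11 of the 34 were lower, and 1516 of all 16243 genes. The single call among 14 ATF4 targets was the folate enzyme Mthfd2 (-0.56), also lower. The clock repressor Bhlhe41 (0.67) was higher as 1 of 13 clock genes, and the lectin Clec4a2 (0.90) as 1 of 15 dendritic cell genes. Also higher was the checkpoint receptor Havcr2 (0.48), 1 of 16 effector and exhausted T-cell genes. So were the basophil protease Mcpt8 (1.88), 1 of 7 mast cell and basophil genes, and the pancreatic Cela1 (1.02), 1 of 6 exocrine pancreas genes. The 12 monocyte genes had 1 call in each direction, Lyz2 (0.74) and Ms4a4c (-0.56), and so had 11 genes of blood stem and progenitor cells, with the homeobox factor Meis1 at 0.63 and the surface receptor Slamf1 at -0.54. H2-DMb1, which helps load MHC class II, was the 1 call among 10 presentation genes, lower (-0.45), and the transcription factor Maf the 1 call among 10 regulatory and follicular helper T-cell genes, higher (0.51). Erythroid genes (26 tested, median -0.46), megakaryocyte genes (18) and MHC class I genes (11) had 0 calls in limma, as had neutrophil, heat shock, cholesterol synthesis, endoplasmic reticulum stress, marginal zone macrophage, inflammatory cytokine and CaM kinase II genes. Over these 10 lists 20 of 129 genes had an unadjusted p under 0.05 in limma, and edgeR called 6 and DESeq2 9. Camk2b, whose product is a subunit of that kinase, had 2138 to 13091 (median 5289.8) at 14 months, against 2380.0 to 22234 (median 8699) at 5 and 8 months (log2 fold change -0.50, SE 0.34, limma adjusted p = 0.387). Wipf3, an actin regulator, was the 1 call among 6 genes known from earlier results to be high in old spleens, at 16.8 to 71.8 (median 47.5) at 14 months, against 5.96 to 31.2 (median 15.3) at 5 and 8 months (log2 fold change 1.56, SE 0.26, limma adjusted p = 0.00125). The other 5 had negative log2 fold changes that did not pass, and the list median was -0.15.

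**Figure D4:**
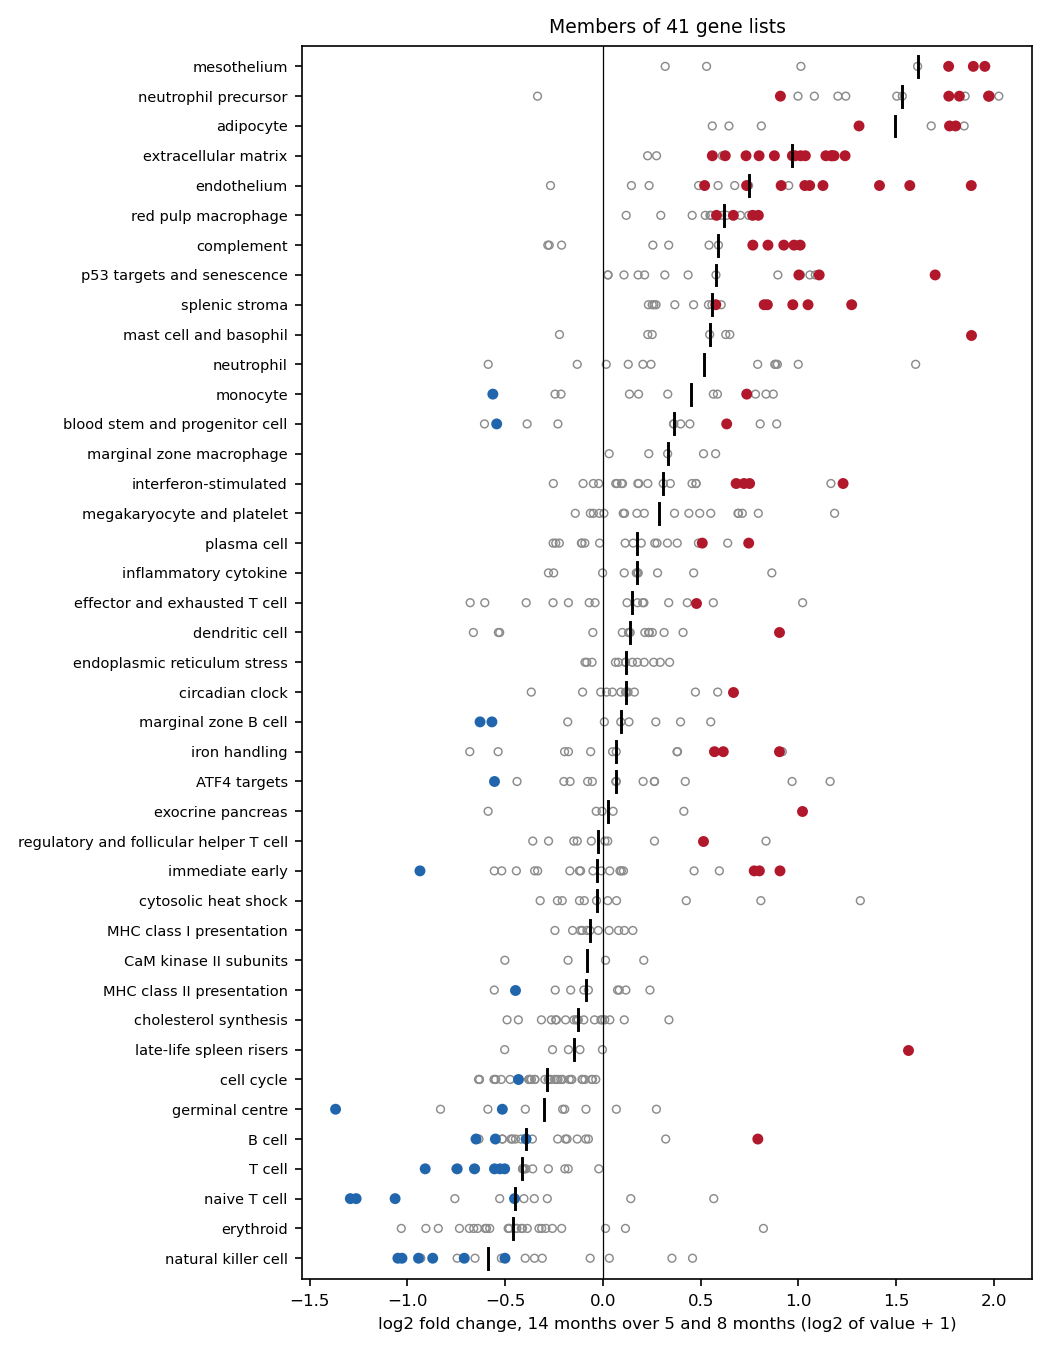
Log2 fold change, 14 months over 5 and 8 months, of every tested member of 41 gene lists, ordered by the list median (black bar), with called members filled. Matrix, endothelium and stroma lists have calls only right of 0, T-cell, naive T-cell and natural killer lists only left of 0, and 10 lists have none.

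Further genes were named by the rule for size and p. Chil5, a chitinase-like protein, had 68.0 to 342 (median 126) at 14 months, against 187 to 566 (median 369.5) at 5 and 8 months (log2 fold change -1.21, SE 0.21, limma adjusted p = 0.00142), with 7 of 9 older spleens below all younger ones. Gng8, a G-protein gamma subunit, changed by 1.93 (SE 0.47, limma adjusted p = 0.0117) and Fam19a1, a secreted chemokine-like protein known from neurons, by 1.71 (SE 0.41, limma adjusted p = 0.011). Gng8 lost its call in 4 of 18 other settings and Fam19a1 in 2 of 18. Ms4a4c, a membrane-spanning protein of the monocyte list, had 256 to 519 (median 356) at 14 months, against 443 to 713 (median 549) at 5 and 8 months (log2 fold change -0.56, SE 0.11, limma adjusted p = 0.00308). Rcc2, a regulator of mitosis and cell spreading, had 1106 to 1951 (median 1504) at 14 months, against 1611 to 3397 (median 2176) at 5 and 8 months (log2 fold change -0.54, SE 0.11, limma adjusted p = 0.00286). Gstp3, a glutathione transferase, changed by -1.07 (SE 0.26, limma adjusted p = 0.0106).

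The 14-month animals were also set against each younger age alone, so these comparisons share them. Against 5 months 637 genes were called (3.92%), 519 higher (3.2%) and 118 lower (0.726%), and against 8 months 250 (1.54%), 226 higher (1.39%) and 24 lower (0.148%). The count against 8 months was 2 without replicate 4 at 8 months, 3 without replicate 1, 2, 3 or 7 at 14 months and 854 without replicate 8 at 14 months. Without the 5 libraries under 5000000 reads, all of 5 months, 11 genes (0.0677%) were called against 5 months. Scube1 changed by 1.47 against 5 and 1.29 against 8 months, Emcn by 2.05 and 1.70, Col3a1 by 1.12 and 1.16, Lef1 by -1.44 and -1.13, and Klre1 by -1.01 and -1.05. The matrix list had 11 calls against 5 months and 8 against 8 months, the endothelium list 6 and 4, and the collagen family 15 and 4, all higher. Matrix metalloproteinase and ADAMTS genes had 8 and 2, complement genes 5 and 1, red pulp macrophage genes 2 and 2, stroma genes 4 and 0 and interferon genes 1 and 0, all higher in limma, where 8 stroma and 7 interferon genes had an unadjusted p under 0.05 against 8 months. The T-cell list had 2 and 2, naive T cells 2 and 1, and natural killer cells 3 and 2, all lower, and neutrophil precursors 0 and 0 in limma at medians of 1.31 and 1.74, with 6 and 11 genes at an unadjusted p under 0.05. Between 8 and 5 months 0 genes were called by limma, where 394 had an unadjusted p under 0.05. edgeR and DESeq2 also called 0 there, with 350 and 409 genes under that p.

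At the other ages of the experiment the same lists are given as a description. The matrix list mean was 7.35 at 3, 7.24 at 5, 7.20 at 8, 8.08 at 14, 8.12 at 20 and 7.60 at 26 months. Naive T-cell means were 9.03, 9.03, 9.05, 8.52, 7.96 and 8.25 at the same ages, and natural killer means 6.15, 5.94, 5.99, 5.45, 5.04 and 5.92. The neutrophil precursor mean was 3.02, 3.37, 2.86, 4.56, 6.91 and 5.29. Mean values of Scube1 were 109 at 3, 76.1 at 5, 85.1 at 8, 215.2 at 14, 357.2 at 20 and 74.1 at 26 months, with 7 animals at 3 and 20 and 5 at 26 months. Levels at 14 months stood between those of 8 and 20 months for the naive T-cell, natural killer and neutrophil precursor lists.

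**Figure D5:**
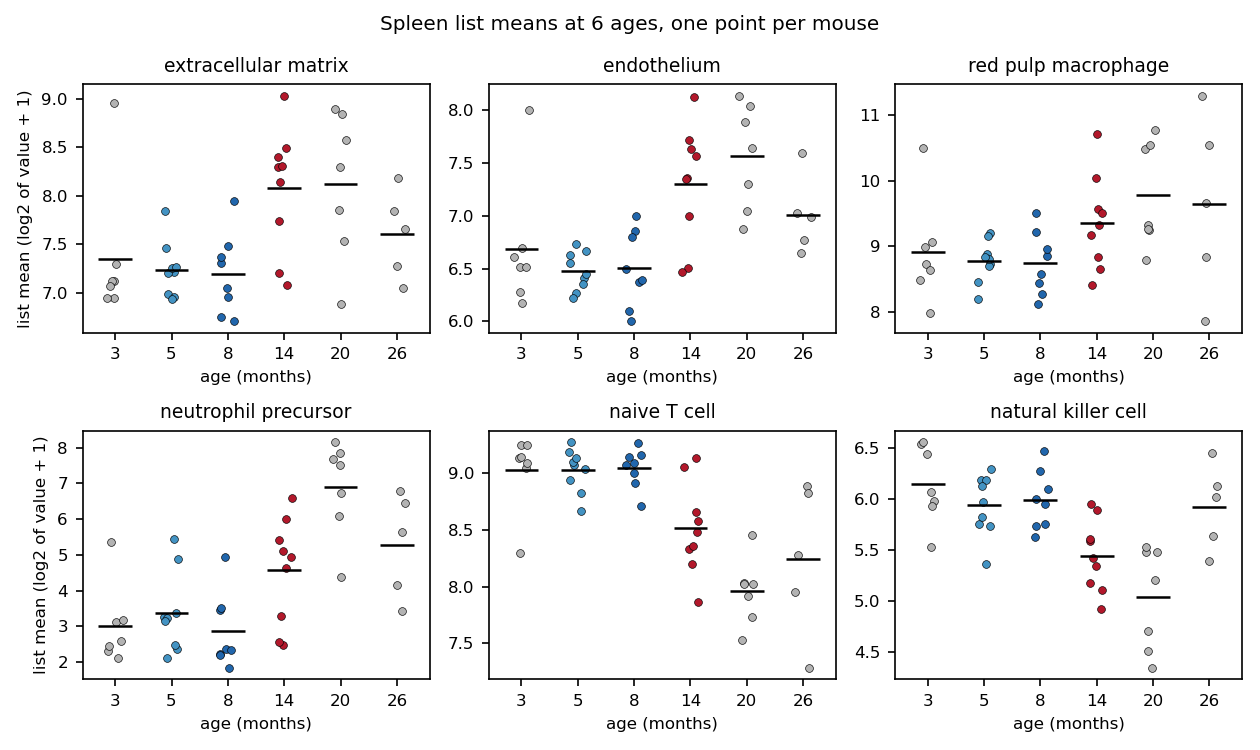
Mean of log2 of value plus 1 over 6 gene lists in each spleen at 3, 5, 8, 14, 20 and 26 months, with a line at the mean of each age. Matrix and endothelium means are higher at 14 than at 5 and 8 months, naive T-cell and natural killer means are lower, and the 14-month points of the matrix and neutrophil precursor lists spread widely.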

How the data were processed

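Per the labels' protocols, RNA was extracted from flash-frozen tissue with TRI-Reagent, cleaned with a Monarch kit and made into libraries with a TruSeq kit from 1 µg. Tools listed in the submitters' processing notes are HISAT2 2.1.0, SAMtools, cutadapt, bcl2fastq 2.20, DESeq2 and R 3.5.1, with GRCm38 as the genome. Which counter and gene annotation were used is not given in the sources used here. The deposited signal values are the authors' read counts over a size factor of each library, as each column is made of whole multiples of 1 step. Whole reads were recovered for 100% of values to within 0.01 of a read, and the count tests on them called 1545 genes (edgeR) and 1905 (DESeq2), against 1324 with limma.

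Ages and animals were taken from the labels, and columns were matched by animal code. The codes beginning with ET in the titles are unexplained and were not used. limma 3.58.1 in R 4.3.3 fitted 2 group means to log2 of the value plus 1, with a mean-variance trend, for the pooled comparison. A fit with 3 age means gave the single-age comparisons. Alternatives were the pseudocount, the filter, edgeR 4.0.16, DESeq2 1.42.0, TMM scaling, array weights, all 45 spleens, list means or log2 reads as covariates, and leaving out libraries. All 325 pairs of libraries differed by at least 2.63 times the variance of read sampling, so no library was counted as a repeat. Genes named by size were the 12 largest called changes in each direction with a higher-group mean of 50 or more, and the 5 smallest p in each direction. Predicted genes, pseudogenes, immunoglobulin and T-cell receptor segments and sex-linked genes were left out of that naming, and up to 4 genes with the smallest p were named in a list. The 41 lists hold 620 genes, of which 565 were tested. Some members of the lists are not reported here by name. The age groups, lists and families were chosen with earlier results of these data known. Families grouped by gene symbol, with the immunoglobulin segments, were added after the values of this comparison were seen. RefSeq windows and positions are on GRCm38.p6. The fits were tested on simulated data. Figures used matplotlib 3.10.9 under Python 3.11.15.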

Additional observations from a re-analysis of the deposited data

Results flagged for a closer look

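In 7 of 216 sets of values of 1 age, a single spleen stood far from the rest by Dixon's criterion, which chance meets in about 1 of 20 sets. Replicate 7 at 14 months had an exocrine pancreas list mean of 8.43 on the log2 scale, next to 2.84 in the nearest 14-month spleen. The same library had a cytosolic heat shock list mean of 10.2, next to 9.45. Replicate 2 at 8 months had a cytosolic heat shock mean of 10.1 (nearest 9.37), a megakaryocyte and platelet mean of 6.50 (nearest 5.68) and a mean of 6.64 (nearest 5.28) for the genes known to be high in old spleens. Replicate 6 at 5 months had a log2 value of 0 for Fam19a1 (nearest 2.75) and of 4.40 for Rgs13 (nearest 5.91). Rgs13 remained called when that library was left out. In 3 of 19 other settings Rgs13 lost its call. They were 8 months alone, the adipocyte and mesothelium covariate, and the fit without replicates 3, 6 and 7 at 14 months.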

How the results depend on the processing

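The reported shares were 8.15% pooled (1324 genes), 3.92% against 5 months (637) and 1.54% against 8 months (250). Shares from counts that moved by over 1.5 times follow in that order, by limma unless named. All 45 spleens in 1 fit gave 3.42% (2.99% higher, 0.437% lower), 1.64% and 0.16%. Array weights gave 19.0% (11.8% higher, 7.18% lower), 15.1% and 8.36%. With no filter, over 26708 genes, 0.76% were lower and the single ages gave 1.28% and 0.446%. DESeq2 gave 7.62% and 4.53% for the single ages. In place of the pooled group, 5 months gave 3.92% (3.2% higher, 0.726% lower) and 8 months 1.54% (1.39% higher, 0.148% lower). Without libraries under 5000000 reads the pooled share was 3.88% (3.31% higher, 0.579% lower) and that against 5 months 0.0677%. Against 8 months a log2 reads covariate gave 2.55% and an erythroid one 2.35%. The neutrophil covariate gave 1.5% (1.13% higher, 0.369% lower), 1.21% and 0. The adipocyte and mesothelium covariate gave 0.0369% (all higher), 0.0431% and 0. Without replicates 3, 6 and 7 at 14 months the shares were 1.05% (0.942% higher, 0.111% lower), 0.135% and 0. For those 3 shares of 0 against 8 months, run in limma alone, 1802, 1124 and 1701 genes had an unadjusted p under 0.05. Without replicate 6 at 5 months and replicate 7 at 14 months the shares were 4.75% (0.77% lower), 2.36% and 0.456%. The cause was not tested. The adipocyte and mesothelium covariate and the last 2 omissions were chosen after seeing the data.

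Leaving out 1 library gave 3.68% (without replicate 7 at 14 months) to 12.7% (without replicate 8) pooled, 3.14% to 8.36% higher and 0.536% to 4.38% lower. Against 5 months it gave 1.48% to 7.98%, and against 8 months 0.0123% (2 genes, without replicate 4 at 8 months) to 5.26%. Between 8 and 5 months it gave 0 genes in all 26 fits.

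Under the adipocyte and mesothelium covariate, whose lists hold both genes, Car3 reversed to -0.18 (limma adjusted p = 0.944) and Cfd to -0.20 (limma adjusted p = 0.946). Scube1, Tshz2 and Abi3bp kept their calls in all 19 settings and 26 omissions, while Camp lost its call in 13 and 19. No paired analysis was possible because the labels give no numbers that pair animals across ages.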
